A study of Mus musculus with 4 samples.

Results

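The 50 genes described here are the chemokines and the chemokine receptors of the array, 34 ligands and 16 receptors measured by 64 probes, of 29353 named genes and 40628 gene probes in all. They were chosen by the gene name in the spot files, which had to be Ccl, Cxcl, Xcl, Cx3cl, Ccr, Cxcr, Xcr or Cx3cr followed by a number, with Cxcl12 and Cxcl14 left out. The rule uses no measured value, though it was set with earlier results of these data known. The study followed blood stem and progenitor cells and the cells around them in bone marrow of irradiated mice that had received a transplant. RNA was measured on 4 one-colour Agilent whole-genome mouse arrays, with 1 array for each group.

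The groups were LSK cells at day 10, LSK cells at day 0, CD45-negative cells at day 10 and CD45-negative cells at day 0. LSK cells are lineage-negative, Sca-1-positive and c-kit-positive marrow cells, the fraction that holds the blood stem cells and early progenitors. The CD45-negative cells were sorted as stromal cells, which the labels also call niche cells. At day 10 both populations came from CD45.1 recipient mice, irradiated with 700 cGy and then injected with 30000 CD45.2 donor LSK cells. At day 0 they came from healthy mice. All groups are labelled strain C57BL6/J and age 7 weeks, and the labels do not say how many mice were pooled. The protocol text names the stromal gate as CD45.1-negative, which would not remove donor cells of the CD45.2 form. With 1 array in each group there was no test and no standard error, so every value below is a level on 1 array or a difference between 2 arrays, and "2-fold" is a size.

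Chemokines are small secreted proteins that guide the movement of cells, and their receptors are G protein-coupled receptors on the surface of the cells that move. In marrow, some of them hold stem cells in place, others let mature leukocytes leave or enter, and still others are made during inflammation by activated leukocytes. Many ligands bind several receptors and many receptors bind several ligands, so the genes are described here by receptor with the ligands each is known to bind.

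A level is the log2 of the background-subtracted spot signal minus the log2 of the 75th percentile of that array, so 0 is a bright gene and the dimmest genes well above background lie near -4.12, -3.95, -4.24 and -3.15 on the arrays of LSK cells at day 10 and day 0 and CD45-negative cells at day 10 and day 0. Levels of different genes come from different probes and are not set against each other. A summed signal of a marker list adds its genes on the linear scale, so the brightest genes weigh most in it. Of the 50 genes, 19 were well above background on all 4 arrays, 16 on some and 15 on none. Of the 34 ligands 12 were on none, and of the 16 receptors 3. The number well above background was 30 and 27 at day 10 and day 0 in LSK cells, and 28 and 25 in CD45-negative cells at day 10 and day 0. Kit, the stem cell factor receptor used to gate LSK cells, had levels of 4.65 and 5.04 at day 10 and day 0 in LSK cells. In CD45-negative cells Kit was at 1.94 and 1.52 at day 10 and day 0. Ly6a, the gene of Sca-1, also used in the gate, did not separate the sorts at day 10. It had levels of 2.87 and 2.98 in LSK cells and 3.44 and 0.20 in CD45-negative cells, 9.47-fold higher at day 10. Ptprc, the gene of CD45, had levels of 4.25 and 4.18 in LSK cells, and it was also well above background in the CD45-negative sort, at 5.58 at day 10 and 3.10 at day 0. Of 10 reticular and fibroblast markers, 5 were above background in CD45-negative cells at day 10 and 10 at day 0, with summed signals of 8.42 and 97.6 times the 75th percentile. That fall rests on the scaling. With the arrays shifted to equal spike-in signal, the 5 above background on both days differed little or were higher at day 10. Col1a1 was at -0.18, Col1a2 at -0.44, Dcn at 0.05, Pdgfrb at 0.58 and Foxc1 at 2.27.

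**Figure D1:**
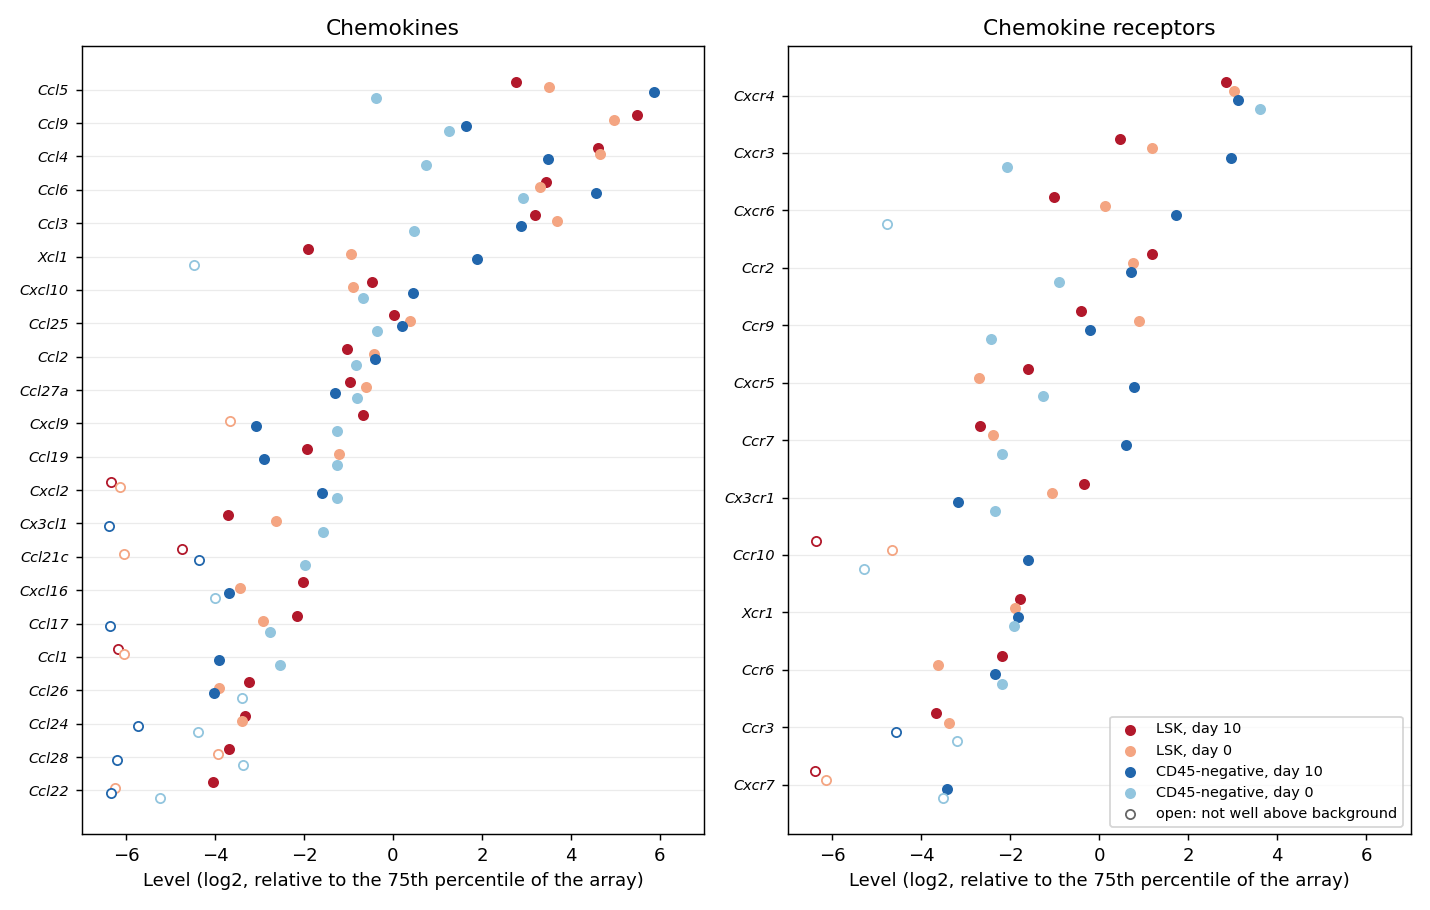
Level of the 35 chemokine and receptor genes above background on at least 1 array, as log2 relative to the 75th percentile of the array, with 1 point per array (red for LSK cells, blue for CD45-negative cells, dark for day 10, light for day 0); open points are not well above background. The blue points of Ccl5, Cxcr3, Cxcr6 and Xcl1 lie farthest apart, with day 10 to the right.

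In CD45-negative cells the receptors Cxcr3 and Cxcr6 and the ligands Ccl5 and Xcl1 were each higher at day 10 than at day 0 by 29.2-fold or more. Of 31 members above background on 1 or both arrays, 13 were at least 2-fold higher (41.9%, against 23.0% of 17288 genes in that direction) and 6 at least 2-fold lower (19.4%, against 18.8% of all genes). In either direction 19 members differed by at least 2-fold, where 41.8% of all genes did. Of 12 receptors above background 7 were higher and 0 lower, and of 19 ligands 6 were higher and 6 lower. The median difference was 1.62 for receptors and 0.42 for ligands, 0.50 for ligands and receptors together, and 0.19 over all genes, each over genes above background on both arrays. In bulk RNA of a sorted population, more cells of a type and more RNA per cell cannot be told apart. With the normexp background correction, Ccr9 (0.97), Ccr10 (0.15) and Cxcl10 (0.86) were no longer 2-fold higher. The largest differences were also smaller with it, on the log2 scale. Ccl5 was at 5.87, Cxcr3 at 3.65, Xcl1 at 2.98 or more and Cxcr6 at 2.89 or more. The counts also rest on the scaling to the 75th percentile: when the arrays were shifted to equal spike-in signal, 28 members were at least 2-fold higher, 0 of the 6 stayed at least 2-fold lower, and the median over all genes was 3.45.

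In LSK cells the members differed less. Of 30 members above background on 1 or both arrays, 4 were at least 2-fold higher at day 10 (Ccr6, Cxcr5, Cxcl16 and Cxcl9; 13.3%, against 1.79% of 18033 genes) and 3 at least 2-fold lower (Ccr9, Cxcr6 and Cx3cl1; 10%, against 3.52%). In either direction 7 members did so, where 5.31% of all genes did. The median difference of the members was -0.19. With the normexp background correction, which compresses dim values, only Cxcl9 stayed 2-fold higher and only Ccr9 2-fold lower. Marker genes of other cells differed between the same arrays: the summed signal of plasma cell markers was 11.3 in LSK cells at day 10 and 202.8 at day 0, that of basophil markers 89.5 and 278.4, and that of 13 T and NK cell markers 77.1 and 91.1. Of 12 T and NK cell markers above background, 4 were at least 2-fold lower at day 10 (Cd3d, Cd3e, Cd3g and Cd8a). Gzma, the 1 higher, differed by 1.95. Of 6 plasma cell markers 0 were higher and 3 lower, with Jchain 24.8-fold lower. Of 7 basophil markers 0 were higher and 3 lower. Other lists summed higher at day 10 than at day 0: neutrophil markers at 429.3 and 324.7, monocyte and macrophage markers at 204.3 and 169.2. B cell markers were at 72.9 and 51.9. Of 9 neutrophil markers 3 were higher and 0 lower, of 11 monocyte and macrophage markers 2 and 0, and of 7 B cell markers 1 and 0. Of all genes 3.52% were lower and 1.79% higher. The part of these markers in the member differences was not tested.

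**Figure D2:**
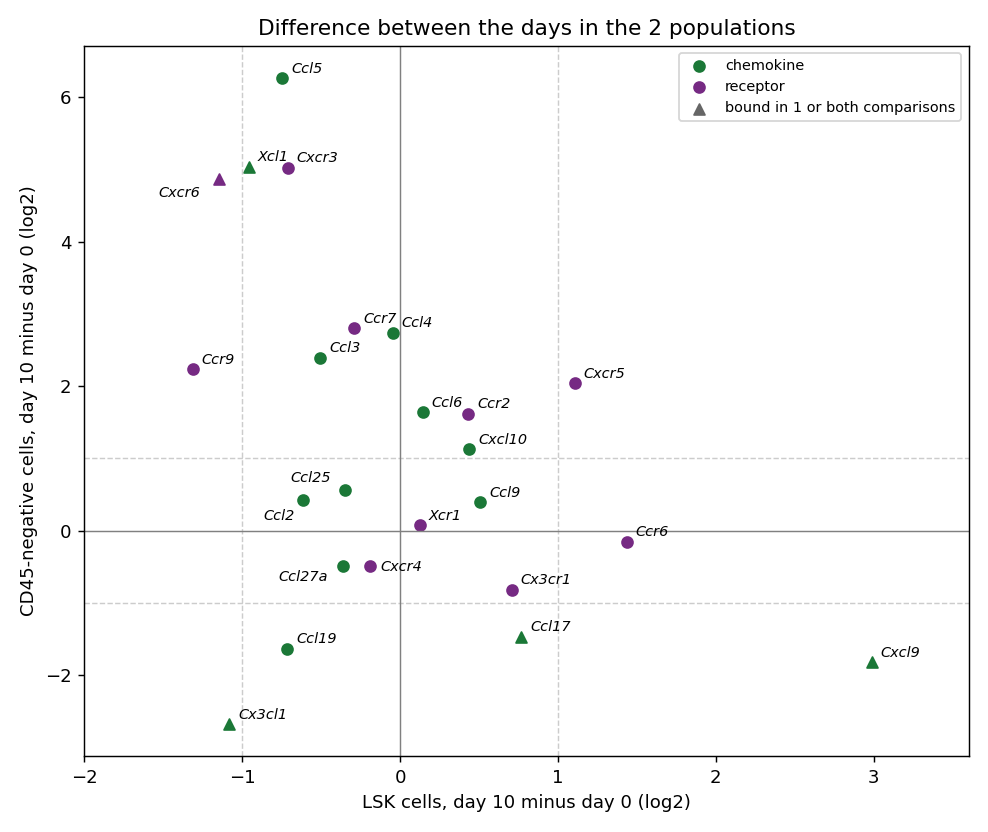
Day 10 minus day 0 in LSK cells (horizontal, log2) and in CD45-negative cells (vertical, log2) for the 24 members with a size in both comparisons; triangles are lower bounds of the size and dashed lines mark 2-fold. Ccl5, Xcl1, Cxcr3 and Cxcr6 lie highest, Cxcl9 alone lies far to the right, and Cxcl9 and Ccl19, below 0 on the vertical axis, lie above it when the arrays are shifted to equal spike-in signal.

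Cxcr3 guides activated T cells and NK cells, and its ligands Cxcl9, Cxcl10 and Cxcl11 are induced by interferon. Cxcr3 had levels of 0.48 in LSK cells at day 10 and 1.19 at day 0, and 2.96 in CD45-negative cells at day 10 and -2.06 at day 0. It was 32.4-fold higher at day 10 in CD45-negative cells (5.02 on the log2 scale, 3.65 with normexp), and in LSK cells it differed by -0.71. Its ligands did not follow one pattern. Cxcl10 had levels of -0.47 and -0.91 at day 10 and day 0 in LSK cells and 0.46 and -0.67 in CD45-negative cells, where it was 2.19-fold higher at day 10. Cxcl9 was above background in LSK cells at day 10, at -0.68, and not at day 0, so it was at least 7.94-fold higher at day 10. In CD45-negative cells Cxcl9 had levels of -3.08 at day 10 and -1.26 at day 0, a difference of -1.82 that became 1.44 with the spike-in shift. Cxcl11 was above background on no array. Cxcl9 and Cxcl10 lie on chromosome 5 with 1 protein-coding gene between them, yet in CD45-negative cells they differed in opposite directions under the 75th percentile scaling.

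The promoters of Cxcl9 and Cxcl10 are shown because these neighbouring genes differed between the days in opposite directions in CD45-negative cells under the 75th percentile scaling, and not under the spike-in shift. Each runs 5′ to 3′ on the strand of the gene, from 250 bases before the start of transcription to 50 after it, as RefSeq gives it on GRCm38.p6: Cxcl9 at chr5:92328030-92328329 and Cxcl10 at chr5:92348840-92349139, both on the minus strand. Capitals mark the letters of motifs searched on both strands: the interferon-stimulated element (GAAA, NN and GAAA in a row), the kappaB pattern (GGGA, NNNN and CC in a row) and the TATA box TATAAA, where N is any base.
Cxcl9: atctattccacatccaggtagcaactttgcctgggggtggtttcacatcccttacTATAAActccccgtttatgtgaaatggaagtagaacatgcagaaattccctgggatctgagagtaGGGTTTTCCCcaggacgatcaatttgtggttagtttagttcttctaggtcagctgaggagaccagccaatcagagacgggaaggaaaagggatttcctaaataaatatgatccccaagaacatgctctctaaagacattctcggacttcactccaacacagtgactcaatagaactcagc
Cxcl10: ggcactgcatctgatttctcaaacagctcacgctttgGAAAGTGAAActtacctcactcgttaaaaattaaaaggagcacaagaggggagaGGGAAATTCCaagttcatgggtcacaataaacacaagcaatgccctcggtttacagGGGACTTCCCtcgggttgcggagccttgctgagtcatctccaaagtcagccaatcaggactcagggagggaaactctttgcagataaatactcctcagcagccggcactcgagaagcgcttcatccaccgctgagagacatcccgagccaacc
In the Cxcl9 window a match to the TATA box letters begins at base 56, far before the start of transcription, and a kappaB match at base 121. In the Cxcl10 window the interferon-stimulated element begins at base 38 and kappaB matches at bases 92 and 148. The kappaB pattern was found in 18 of the 39 promoters of members, against 20.7% of 32851 promoters, and the interferon-stimulated element in 2 of 39, against 3.44%. The TATA box letters were found, at any place in the window, in 12 of 39, against 13.6%. Also searched were the GAS pattern TTCCNGGAA, found in 0 of 39 against 1.15%, the looser TTCNNNGAA, found in 2 of 39 against 8.30%, and the T-box AGGTGTGA, found in 1 of 39 against 1.27%. A match is a description of these letters and not a binding site.

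Ccl3, Ccl4 and Ccl5 are inflammatory chemokines, which activated lymphocytes and myeloid cells secrete and which attract T cells and macrophages. Ccl5 had levels of 2.76 and 3.51 at day 10 and day 0 in LSK cells, and 5.88 and -0.38 in CD45-negative cells. It was 76.6-fold higher at day 10 in CD45-negative cells (6.26 on the log2 scale). In LSK cells it differed by -0.75. Ccl3 had levels of 3.18 and 3.69 in LSK cells and 2.87 and 0.48 in CD45-negative cells, and was 5.25-fold higher at day 10 in the CD45-negative sort. Ccl4 had levels of 4.62 and 4.66 in LSK cells and 3.48 and 0.73 in CD45-negative cells, 6.68-fold higher at day 10. Both were bright in LSK cells at both days. Ccl3, Ccl4, Ccl5, Ccl6 and Ccl9 lie side by side on chromosome 11, and in CD45-negative cells 4 of these 5 were at least 2-fold higher at day 10, against 23.0% of all genes.

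Ccl6 and Ccl9 are mouse ligands of Ccr1, which is found on neutrophils and macrophages. Ccl6 had levels of 3.44 and 3.30 at day 10 and day 0 in LSK cells and 4.57 and 2.93 in CD45-negative cells, 3.12-fold higher at day 10. Ccl9 had levels of 5.49 and 4.98 in LSK cells and 1.64 and 1.25 in CD45-negative cells, and differed by less than 2-fold between the days in both. Ccr1 was above background on no array.

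Cxcr6 marks tissue-resident and activated T cells and NKT cells, and Cxcl16 is its membrane-bound ligand. Cxcr6 had levels of -1.0 and 0.14 at day 10 and day 0 in LSK cells, 2.21-fold lower at day 10. In CD45-negative cells it was at 1.72 at day 10 and not above background at day 0, at least 29.2-fold higher. With normexp that bound was 2.89 on the log2 scale. Cxcl16 had levels of -2.02 and -3.45 in LSK cells, 2.69-fold higher at day 10, and in CD45-negative cells was at -3.70 at day 10 and not above background at day 0. A second probe of Cxcl16 gave a difference of 2.76 in LSK cells and was above background there at day 10 alone. In LSK cells the receptor and its ligand thus differed in opposite directions, and of the 29 member pairs this was the 1 in which both did so by at least 2-fold.

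Xcl1, which activated NK and CD8 T cells secrete, attracts dendritic cells that carry Xcr1. Xcl1 had levels of -1.90 and -0.95 at day 10 and day 0 in LSK cells. In CD45-negative cells it was at 1.88 at day 10 and not above background at day 0, at least 32.8-fold higher. With normexp that bound was 2.98 on the log2 scale. Xcr1 had levels of -1.77 and -1.89 in LSK cells and -1.83 and -1.91 in CD45-negative cells, without a 2-fold difference, and its second probe was above background in LSK cells at day 10 alone.

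Marker genes of T and NK cells moved with these members in the CD45-negative sort. Of 13 such markers, 12 were above background in CD45-negative cells at day 10 and 4 at day 0, with summed signals of 129.9 and 5.31 times the 75th percentile. Of 12 above background, 12 were at least 2-fold higher and 0 lower, with a median difference of 4.39 over the 4 above background on both arrays. To set beside this count and those below, 23.0% of 17288 genes reached that size in the higher direction and 18.8% in the lower one. Cd3d, part of the T cell receptor complex, had levels of -1.05 and 0.98 at day 10 and day 0 in LSK cells and 3.67 and -2.98 in CD45-negative cells; Cd4 was above background on no array. B cell markers had summed signals of 248.5 in CD45-negative cells at day 10 and 123.1 at day 0, and plasma cell markers 213.9 and 3.83. Of 9 neutrophil markers above background 7 were higher and 0 lower, with a median of 1.98. Their summed signal, though, was 868.5 at day 10 and 1066 at day 0. Of 7 basophil and mast cell markers 5 were higher and 1 lower, with a median of 2.05. Red cell markers went the other way under the 75th percentile scaling, with 9 of 9 lower by 2-fold or more at day 10 and a median of -4.30. Of 10 monocyte and macrophage markers above background 2 were higher and 3 lower, with a median of 0.37. The part of all these markers in the member differences was not tested.

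**Figure D3:**
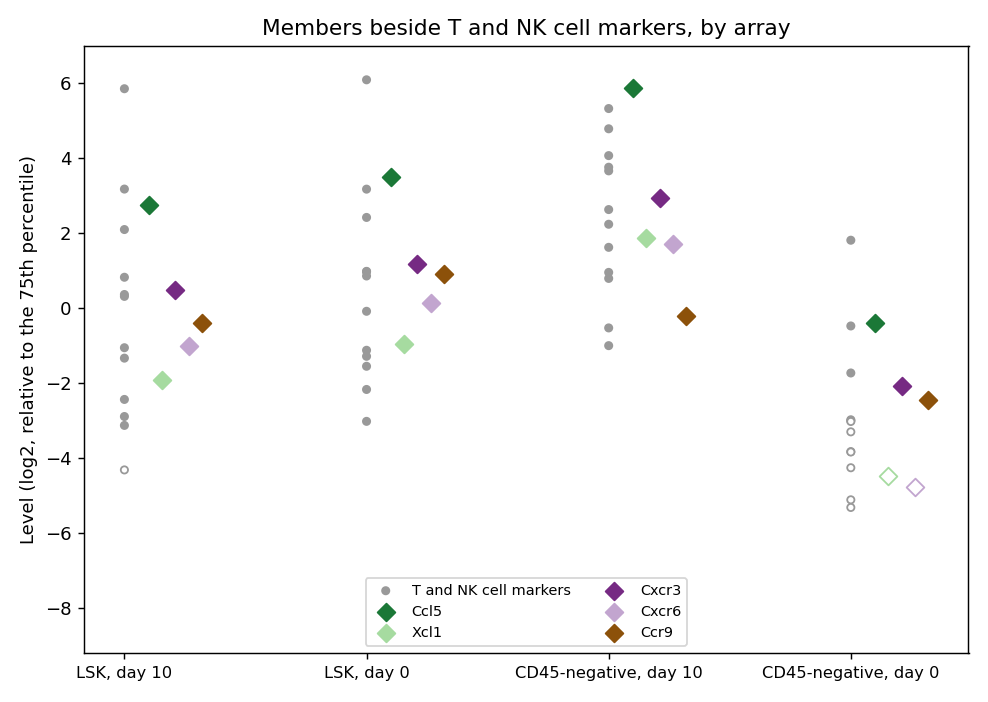
Level (log2 relative to the 75th percentile) on each array of 12 T and NK cell markers (grey circles) and of 5 members (coloured diamonds); open symbols are not above background, and symbols are moved sideways for clarity. The markers and the members are both higher in CD45-negative cells at day 10 than at day 0, where 2 of the 5 members are open.

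Ccr9 guides lymphocytes to the thymus and gut in response to Ccl25. It had levels of -0.41 and 0.91 at day 10 and day 0 in LSK cells, 2.48-fold lower at day 10. In CD45-negative cells it had levels of -0.21 and -2.44, 4.69-fold higher at day 10, though less than 2-fold (0.97 on the log2 scale) with normexp. Ccl25 differed by less than 2-fold between the days in both populations, with levels of 0.03 and 0.38 in LSK cells and 0.20 and -0.37 in CD45-negative cells. Ccr9 and Cxcr6 are separated by 1 protein-coding gene on chromosome 9, and both differed between the days in opposite directions in the 2 populations.

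The promoters of Ccr9, Cxcr6 and Cxcr3 are shown because these receptors had large day differences in CD45-negative cells. They are given as above, from RefSeq on GRCm38.p6: Ccr9 at chr9:123766961-123767260 on the plus strand, Cxcr6 at chr9:123806227-123806526 on the plus strand and Cxcr3 at chrX:101734098-101734397 on the minus strand.
Ccr9: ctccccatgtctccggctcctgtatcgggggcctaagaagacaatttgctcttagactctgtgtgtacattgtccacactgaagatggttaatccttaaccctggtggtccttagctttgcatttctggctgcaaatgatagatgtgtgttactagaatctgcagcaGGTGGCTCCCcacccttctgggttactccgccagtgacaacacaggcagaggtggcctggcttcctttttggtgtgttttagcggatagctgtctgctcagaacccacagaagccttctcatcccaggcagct
Cxcr6: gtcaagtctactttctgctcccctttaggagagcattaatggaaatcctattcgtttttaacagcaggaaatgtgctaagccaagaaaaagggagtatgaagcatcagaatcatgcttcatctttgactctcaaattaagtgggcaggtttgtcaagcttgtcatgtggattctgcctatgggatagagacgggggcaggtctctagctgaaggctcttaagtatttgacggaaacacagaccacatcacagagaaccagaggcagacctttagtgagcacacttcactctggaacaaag
Cxcr3: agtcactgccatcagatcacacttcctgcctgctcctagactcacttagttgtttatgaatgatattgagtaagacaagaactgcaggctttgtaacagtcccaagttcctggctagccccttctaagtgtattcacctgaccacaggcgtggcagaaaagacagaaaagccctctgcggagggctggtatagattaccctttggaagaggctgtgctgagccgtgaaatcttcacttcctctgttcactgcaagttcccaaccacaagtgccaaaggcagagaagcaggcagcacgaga
The Ccr9 window holds a kappaB match on the opposite strand, beginning at base 168. None of the motifs searched was found in the Cxcr6 and Cxcr3 windows, which says only that these letters are absent from them.

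Ccr7 and Cxcr5 place lymphocytes in lymphoid organs. Ccr7 had levels of -2.67 and -2.38 at day 10 and day 0 in LSK cells and 0.61 and -2.19 in CD45-negative cells, 6.96-fold higher at day 10. Its ligands went the other way in that sort under the 75th percentile scaling, and not under the spike-in shift. Ccl19 had levels of -1.93 and -1.21 in LSK cells and -2.89 and -1.26 in CD45-negative cells, a difference of -1.63 that its second probe gave as -2.40 and the spike-in shift as 1.63. Ccl21c was above background in CD45-negative cells at day 0 alone, at -1.99, at least 4.75-fold lower at day 10, with no size under the spike-in shift. Ccl21c has near-identical copies in the mouse genome, so its probe may not tell them apart. Cxcr5, the receptor of B cells and follicular helper T cells, had levels of -1.59 and -2.70 in LSK cells, 2.15-fold higher at day 10, and 0.78 and -1.26 in CD45-negative cells, 4.10-fold higher. Its ligand Cxcl13 was above background on no array. Under the 75th percentile scaling Cxcr5 was the 1 member at least 2-fold higher at day 10 in both populations. In LSK cells it was at 0.91 with the spike-in shift and 0.40 with normexp, under 2-fold. With the spike-in shift Ccr6, Cxcl9 and Cxcl16 were at least 2-fold higher in both populations. Of these, Cxcl9 in LSK cells and Cxcl16 in CD45-negative cells were bounds.

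Ccr6 is found on B cells and on IL-17-producing T cells. It had levels of -2.18 and -3.61 at day 10 and day 0 in LSK cells, 2.70-fold higher at day 10, and -2.33 and -2.18 in CD45-negative cells. Its ligand Ccl20 was above background on no array. Ccr10, found on skin-homing T cells and plasma cells, was above background in CD45-negative cells at day 10 alone, at -1.59, at least 2.95-fold higher. Of its ligands, Ccl27a differed by less than 2-fold in both populations on its brightest probe, while its other probes gave -2.37 and -1.01 in CD45-negative cells. Ccl28 was above background in LSK cells at day 10 alone, at -3.69, with a close level of -3.94 at day 0.

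Ccr2 brings monocytes out of the marrow. It had levels of 1.20 and 0.77 at day 10 and day 0 in LSK cells and 0.71 and -0.91 in CD45-negative cells, 3.07-fold higher at day 10. Its second probe gave 1.12 in LSK cells and 0.75 in CD45-negative cells. Of its ligands, Ccl2 differed by -0.61 in LSK cells and 0.42 in CD45-negative cells, and Ccl7 and Ccl12 were above background on no array. Cx3cr1, of patrolling monocytes and NK cells, had levels of -0.35 and -1.06 in LSK cells and -3.16 and -2.35 in CD45-negative cells. Its membrane-bound ligand Cx3cl1 had levels of -3.71 and -2.63 in LSK cells, 2.12-fold lower at day 10. In CD45-negative cells Cx3cl1 was above background at day 0 alone, at -1.56, at least 6.38-fold lower at day 10, with no size under the spike-in shift. Cx3cl1 was the single member at least 2-fold lower in both populations under the 75th percentile scaling.

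Ccr4 was above background on no array. Of its ligands, Ccl17 had levels of -2.17 and -2.93 at day 10 and day 0 in LSK cells, and in CD45-negative cells was above background at day 0 alone, at -2.77, at least 2.76-fold lower at day 10 under the 75th percentile scaling. Ccl22 was above background in LSK cells at day 10 alone, at -4.04, too dim for a size. Ccl22, Cx3cl1 and Ccl17 lie side by side on chromosome 8. Ccr3, the eosinophil receptor, had levels of -3.67 and -3.38 in LSK cells and was not above background in CD45-negative cells. Its ligand Ccl24 had levels of -3.33 and -3.40 in LSK cells, with a second probe at a difference of 1.39. Ccl26 differed by 0.66 in LSK cells, and Ccl11 was above background on no array. Ccr8 and Ccl8 were above background on no array, while Ccl1, a ligand of Ccr8, had levels of -3.91 and -2.55 in CD45-negative cells at day 10 and day 0, a difference of -1.36 that became 1.90 with the spike-in shift.

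Cxcr4 retains stem cells and immature leukocytes in marrow. It was bright on every array, with levels of 2.84 and 3.03 at day 10 and day 0 in LSK cells and 3.12 and 3.61 in CD45-negative cells. It differed by -0.19 between the days in LSK cells and by -0.48 in CD45-negative cells, and its second probe gave 1.05 and -0.43. Cxcr7, now named Ackr3 in RefSeq, was above background in CD45-negative cells at day 10 alone, at -3.42. Its level at day 0 was close to that, at -3.50, on an array where the lowest level above background was -3.15, against -4.24 at day 10. Cxcl2, a ligand of the neutrophil receptor Cxcr2, had levels of -1.59 and -1.25 in CD45-negative cells and was not above background in LSK cells. Cxcl1, Cxcl3, Cxcl5, Cxcl15 and Cxcl17 were above background on no array.

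Comparing the populations at each day used the same 4 arrays and adds no independent data. At day 10, 6 of 34 members were at least 2-fold higher in LSK cells than in CD45-negative cells (17.6%, against 12.8% of 18103 genes) and 9 lower (26.5%, against 12.8%), and 15 differed in either direction, where 25.6% of all genes did. At day 0, 10 of 31 were higher in LSK cells (32.3%, against 21.8% of 17728 genes) and 7 lower (22.6%, against 18.0%), and 17 differed in either direction, where 39.8% of all genes did. With the spike-in shift these became 2 higher and 21 lower at day 10, and 24 higher and 0 lower at day 0. Ccl5, Cxcr3, Cxcr6 and Xcl1 were at least 2-fold lower in LSK cells than in CD45-negative cells at day 10 and at least 2-fold higher at day 0. Ccl5 differed by -3.11 at day 10 and by 3.89 at day 0. Cxcl9 did the reverse under the 75th percentile scaling, 2.40 at day 10 and at least 5.31-fold lower at day 0. By that scaling Ccl4, Ccl9 and Cx3cr1 were at least 2-fold higher in LSK cells at both days, and Cxcr5 and Cxcl2 lower. Ccl9 was then 14.3-fold higher in LSK cells at day 10 and 13.2-fold at day 0, and Cx3cr1 7.03-fold and 2.44-fold. Ccl4, at 1.14 at day 10, was not 2-fold higher there with the spike-in shift. Cxcr5 and Cxcl2 were not 2-fold lower at day 0 with it. Values that follow use the 75th percentile scaling. Ccr9 differed by -0.20 at day 10 and was 10.2-fold higher in LSK cells at day 0.

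**Figure D4:**
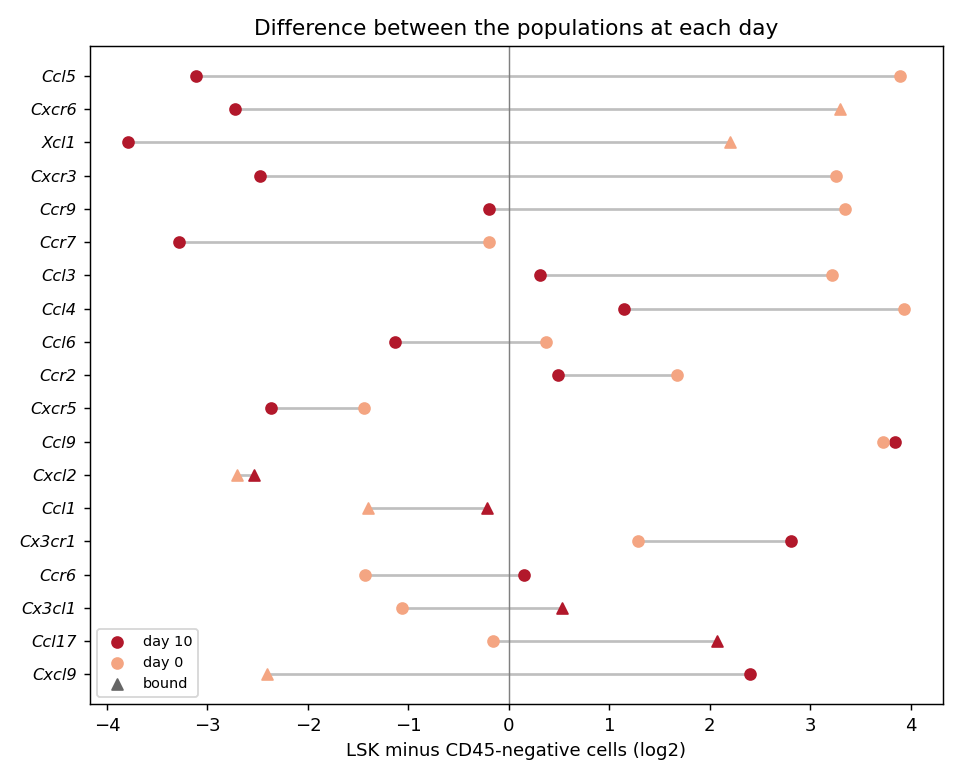
LSK minus CD45-negative cells (horizontal, log2) at day 10 (dark) and day 0 (light) for 19 members; triangles are bounds. Ccl5 lies at -3.11 at day 10 and 3.89 at day 0 and Cxcl9 has the opposite order; with the arrays shifted to equal spike-in signal, day 10 values would move left and day 0 values right.

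The genes through which chemokine receptors signal were listed apart from the members. Of 21 signalling and migration genes above background in CD45-negative cells, 14 were at least 2-fold higher at day 10 and 0 lower, with a median of 1.33. Of all genes 23.0% were higher and 18.8% lower there, which is the background for this count and the next ones. In LSK cells 1 was higher, Dock2 at 1.07, and 0 lower, against 1.79% and 3.52% of all genes. Of 12 receptor kinases, arrestins and RGS proteins, which turn receptors off, 7 were higher in CD45-negative cells and 1 lower, among them Rgs16 at 4.37, Rgs1 at 3.07 and Arrb1 at -3.72. Of 9 inducers of chemokines above background, 7 were higher and 0 lower. Ifng, the interferon that induces the Cxcr3 ligands, had levels of -0.36 and -0.69 at day 10 and day 0 in LSK cells and 2.94 in CD45-negative cells at day 10, and was not above background there at day 0. Of 4 atypical receptors above background, which bind chemokines without the usual signal, 0 were higher and 3 lower in CD45-negative cells, with Ackr1, also carried by red cell precursors, 29.4-fold lower. With the spike-in shift Ackr1 differed by -1.62 and Arrb1 by -0.46, while Ccrl2, one of the 3 lower, turned to 1.70.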

How the data were processed

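RNA of 4 sorted samples was labelled with Cy3 and hybridised to 4 arrays on 1 slide. Per the file headers, the authors ran Agilent Feature Extraction, version 10.5.1.1, on the scans. The deposited spot files hold fluorescence intensity, raw and background-subtracted, per the file headers. They also hold flags for detection, saturation and outliers, which are of another kind than signals, per the file headers. The deposited series table holds log2 values of the same arrays; they equalled the log2 processed signal minus 1 constant per array within 0.001 for nearly all probes, and served as an alternative.

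From the processed intensity, log2 was taken and the 75th percentile of each array subtracted. Control spots and outlier spots were left out. Where a gene had several probes, the one brightest on average across the arrays stands for it. Where a probe was not well above background on one of 2 arrays, the size is a bound: the bright level against the higher of the lowest level well above background and the probe's own level. A gene counts at 2-fold or more. The groups come from the labels, and design and unit allow no test. All members called in a day comparison, and all receptors above background, are named with values; others are named briefly. The members, the marker lists and the pathway lists were chosen with earlier results of these data known. RefSeq matched 63 of 64 member probes, and its promoter table held 35 of 50 members. A gene that the naming rule also matched, and a gene of a pathway list, are not reported here. The 10 alternatives were normexp (offset 50, limma 3.58.1), quantile, cyclic loess, median shift, percentile over detected probes, spike-in shift, series table, mean of probes, no detection filter, and probes detected on both arrays. Python 3.11.15, numpy 2.4.6, pandas 2.3.3 and R 4.3.3 were used, and the calculation was tested on simulated data. The arrays had 47.6% to 56.6% of probes well above background, and their number limits the precision.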

Additional observations from a re-analysis of the deposited data

Results flagged for a closer look

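For 3 members the day 10 minus day 0 difference was at least 2-fold in both populations and went opposite ways; with 1 array per group, the difference between the populations was not tested. Ccr9 differed by -1.31 in LSK cells and by 2.23 in CD45-negative cells (log2). Cxcr6 differed by -1.14 in LSK cells and by at least 4.87 in CD45-negative cells, a bound that was 2.89 with normexp. Cxcl9 differed by at least 2.99 in LSK cells and by -1.82 in CD45-negative cells, a sign that turned with the spike-in shift. With normexp, Ccr9 in CD45-negative cells (0.97) and Cxcr6 in LSK cells (-0.83) were under 2-fold, with the same sign.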

How the results depend on the processing

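Of 26 day differences of at least 2-fold, 9 kept that size and direction under all 10 alternatives: Ccr9 in LSK cells, and Ccl3, Ccl4, Ccl5, Ccl6, Ccr2, Ccr7, Cxcr3 and Cxcr5 in CD45-negative cells. With normexp, the LSK counts were 1 higher and 1 lower (4 and 3 as reported) and the day 0 population count was 2 lower (7). With the spike-in shift, CD45-negative cells had 28 higher and 0 lower (13 and 6), a median of 3.76 (0.50), and Ccl1, Ccl19 and Cxcl9 reversed to 1.90, 1.63 and 1.44; the populations had 2 higher and 21 lower at day 10 (6 and 9) and 24 higher and 0 lower at day 0 (10 and 7). Mean log2 spike-in signal minus the log2 of the 75th percentile was 0.54 in CD45-negative cells at day 10 and 3.81 at day 0. Without the detection filter, LSK cells had 8 higher, CD45-negative cells 17 lower and a median of -0.64, and the populations 14 higher at day 10 and 11 lower at day 0. With probes above background on both arrays, fewer genes were counted, and CD45-negative cells and the day 0 populations each had 3 lower. Among all genes called, the share higher was 33.7% in LSK cells and 16.8% with the spike-in shift; 55.1% in CD45-negative cells, 98.9% with the spike-in shift and 30.7% without the filter; 50.02% between the populations at day 10, 1.30% with the spike-in shift, 33.9% with cyclic loess, 37.4% with the median shift and 62.5% without the filter; and 54.8% at day 0, 95.0% with the spike-in shift. Of other values, 274 held and 62 moved by more than the spot-to-spot spread; the cause was not tested. No paired analysis was possible because each group has 1 array.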

Other observations

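Pf4 and Ppbp, platelet chemokines whose symbols lie outside the naming rule, were lower at day 10 in CD45-negative cells. With the spike-in shift they were at -0.83, under 2-fold, and at -2.43. Pf4 had levels of 2.79 and 3.97 at day 10 and day 0 in LSK cells and -1.41 and 2.68 in CD45-negative cells. Ppbp had levels of -3.97 and -3.20 in LSK cells and -3.78 and 1.91 in CD45-negative cells. Without that shift, megakaryocyte and platelet markers moved with them, 6 of 7 lower by at least 2-fold, against 18.8% of 17288 genes. Their median was -3.58 over those above background on both arrays. With the spike-in shift Gp9 was at -1.30, and Vwf at -0.84 and Treml1 at -0.32 were under 2-fold. Clec1b and Gp1bb turned to 1.77 and 2.68. The part of these markers was not tested. Cxcr2, which the array calls Il8rb and which was added after its values were known, had levels of -0.65 and -0.57 in LSK cells and 1.92 and -0.05 in CD45-negative cells, 3.91-fold higher at day 10.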
